A study of Mus musculus with 30 samples.

Results

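Quadriceps gene expression after the highest dose of pacDNA-L9, 42.4 mg/kg, was compared with that of untreated wild-type mice to describe what still differed between them. pacDNA-L9 is the antisense oligonucleotide L9, which is complementary to CUG repeats, carried on a bottlebrush polymer. The 3 treated animals (8A, 8B and 8C, called A, B and C here) and the 5 wild-type animals (WT 1 to 4 and 1 whose number could not be matched to its column, called WT unnumbered) made up 8 of the 30 RNA-seq libraries of the series, and all belong to the first of its 2 deposited sets. The treated animals were HSA-LR20b mice (HSA-LR), which carry a human skeletal actin gene with a long CTG repeat on an FVB/N background. WT animals were FVB/N mice that received no injection. The age given for the mice is 8 weeks at the first injection. pacDNA-L9 was given in repeated injections through the tail vein, and muscle was taken 2 weeks after the last injection. Genotype and treatment therefore differed together in this comparison, and 6 untreated HSA-LR mice of the same set (NT) are given beside it. The transgene is driven by a skeletal muscle promoter, so the repeat RNA is made in muscle fibres rather than in the other cells of the tissue. Reads of the transgene were not analysed here.

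In myotonic dystrophy type 1, RNA with expanded CUG repeats holds muscleblind proteins in nuclear foci, and transcripts that need these proteins are spliced as in immature muscle. Loss of the chloride channel ClC-1 leaves the fibre membrane hyperexcitable, which is myotonia. Muscle also answers hormones, disuse and inflammation with programs of its own: glucocorticoids induce metallothioneins and, together with FoxO factors, the ubiquitin ligases of muscle atrophy, while macrophages clear debris and foreign material.

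Counts per library ran from 17376897 to 19682221 in the WT mice and from 18369605 to 25404614 in the treated mice, and 15832 genes were tested over the 24 libraries of the set. All 3 treated mice and 4 of the 5 WT mice were female by their counts of *Xist* and Y-linked genes, and WT 1 was male. Of the 6 NT mice 3 were female, and NT 1, NT 2 and NT 6 were male. Values given against NT therefore compare females with a group of both sexes. The libraries of the treated mice, of WT unnumbered and of NT 6 were named by group and running number alone, unlike the other WT and NT libraries. What this naming reflects is not given in the sources used here. At an equal depth of 13605309 counts, 18190 to 18271 genes were detected in the treated mice, 17972 in WT unnumbered and 18079 in NT 6. WT 1 to 4 had 19067 to 20104 and NT 1 to 5 had 18676 to 19688. All treated mice and only 1 WT mouse are of the first kind, so this difference and the treatment largely coincide. WT unnumbered had 13.3% of its counts on mitochondrial genes, against 6.99% to 8.77% in the other WT mice and 7.28% to 8.51% in the treated mice. The skeletal muscle identity of the samples was checked with 12 defining markers. Their summed CPM, counts scaled to library totals by TMM normalisation, ran over 135675 to 180618 CPM in the WT mice, 143899 to 181494 CPM in the NT mice and 138635 to 164212 CPM in the treated mice. Of the markers, 0 of 11 tested were higher and 0 lower by edgeR (4 at an unadjusted p under 0.05, and 1 higher and 1 lower by DESeq2). On the second principal component, which held 13.5% of the variance, the WT mice lay between 35.8 and 67.6, the NT mice between -21.9 and 13.7, and the treated mice between -54.1 and -35.2. The treated mice thus lay on the far side of the NT mice from WT on this component. The library of free L9 B had a score of 213 on the first component, where the other 23 lay between -18.3 and 5.69.

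**Figure D1:**
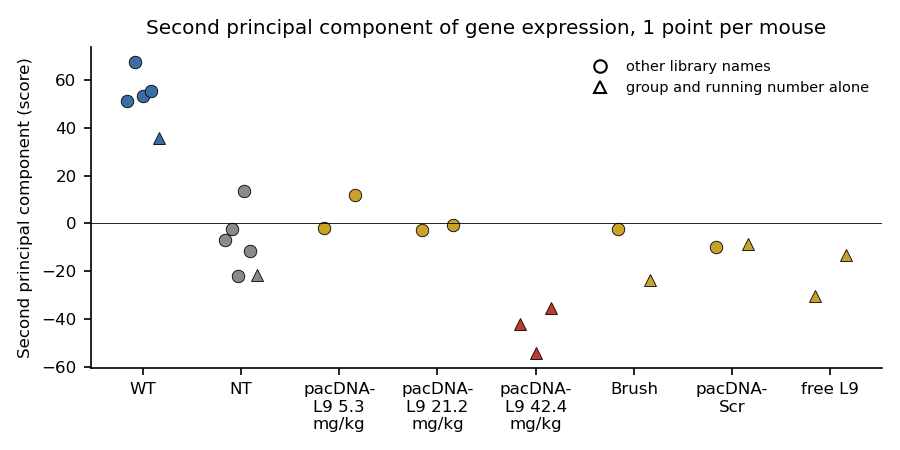
Second principal component of log2 expression for each of the 24 mice of the first set, by condition; circles and triangles mark the 2 kinds of library name. The WT mice sit between 35.8 and 67.6 and the 42.4 mg/kg mice between -54.1 and -35.2, with the NT mice between them.

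After 42.4 mg/kg the muscle differed from WT in potassium and chloride channel genes, Z-disc proteins and genes of the IGF axis. These groups of genes also had members called in NT minus WT. *Clcn1*, a chloride channel gene, and Z-disc genes such as *Flnc* and *Lmod2* lay farther from WT than in the NT mice. The treated muscle was also higher in glucocorticoid-responsive, atrophy, fatty acid and macrophage genes, at which the NT mice gave few or no calls against WT. A total of 1049 genes were higher (6.63% of the genes tested) and 662 lower (4.18%) in the treated than in the WT mice at an adjusted p under 0.05 (edgeR's quasi-likelihood test, Benjamini-Hochberg). A total of 3899 genes had an unadjusted p under 0.05. Of the 1711 genes called, 665 were higher and 376 lower by more than 1 on the log2 scale. The median log2 fold change was -0.03 over all genes tested. The animals of both groups did not overlap for 1578 of the 1711 genes, and did not overlap for 22.2% of all genes tested. For comparison, NT minus WT gave 613 higher (3.87%) and 250 lower (1.58%) genes, and 42.4 mg/kg minus NT gave 307 higher (1.94%) and 121 lower (0.764%). These 3 comparisons share animals and are set side by side only.

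These counts moved with the libraries in the fit. Treated mouse B had the highest level of the 3 treated mice for 626 of the 1049 higher genes and the lowest for 349 of the 662 lower genes, and without it 614 genes were higher and 275 lower. With the kind of library name as a covariate, 603 were higher and 295 lower, and with this covariate but without free L9 B 990 were higher and 636 lower. Free L9 B is in neither group compared, but it enters the estimate of the spread, the filter on low counts and the scaling. Without free L9 B and without the covariate 1617 were higher and 1220 lower. Among the libraries named by running number alone 0 genes passed in each direction, and 732 had an unadjusted p under 0.05. That comparison had 1 WT mouse and 3 residual degrees of freedom, so its 0 calls say nothing about whether the naming bears on the counts. The part of these features in the results below was not tested, and values are given with the mice in the order WT 1, 2, 3, 4 and unnumbered, and treated A, B and C.

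*Sln* encodes sarcolipin, a small inhibitor of the SERCA calcium pump. *Sln* (chr9:53742537-53761846, GRCm39) was at 2.36, 0.344, 1.66, 1.48 and 5.51 CPM in the WT mice and at 117, 122 and 123 CPM in the treated mice. Every treated mouse was above every WT mouse. NT mice spanned 51.5 to 109.9 CPM (median 90.1). The log2 fold change against WT was 5.72 ± 0.49 (SE), adjusted p = 2.35e-07. NT minus WT was 5.24 ± 0.46, adjusted p = 2.73e-07. *Sln* was the 1 member called among 28 tested genes of the calcium store and excitation-contraction coupling, none of which was lower (median log2 fold change -0.05). The list had 2 members called without WT 1 or treated mouse A. Against NT, *Sln* differed by 0.49 ± 0.41, adjusted p = 0.729.

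Of 27 channels and pumps of membrane excitability tested, 4 were higher and 2 lower at 42.4 mg/kg than in WT, and 6 and 3 in NT than in WT. *Clcn1* (chr6:42263595-42292718), the gene of the muscle chloride channel, was at 153, 219, 196, 188 and 124 CPM in the WT mice and at 62.0, 64.4 and 62.1 CPM in the treated mice. The treated mice were the lowest of the 3 groups and close to each other. The NT range was 83.4 to 119.9 CPM (median 98.5). *Clcn1* was lower than in WT by a log2 fold change of -1.48 ± 0.18, adjusted p = 8.22e-06, and lower than in NT by -0.66 ± 0.17, adjusted p = 0.0324. Its levels at the lower doses were 92.6 and 106 CPM at 5.3 mg/kg and 153 and 137 CPM at 21.2 mg/kg. Gene-level counts do not show how its transcripts were spliced.

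*Kcnn3* encodes the SK3 calcium-activated potassium channel, which innervated adult muscle hardly expresses. *Kcnn3* was at 2.09, 1.49, 3.02, 2.39 and 1.68 CPM in the WT mice and at 18.2, 14.7 and 17.2 CPM in the treated mice (log2 fold change 2.96 ± 0.29, adjusted p = 7.28e-07). *Kcnab1*, a beta subunit of voltage-gated potassium channels, went the other way, from 10.9, 56.7, 44.9, 32.5 and 11.0 CPM in WT to 2.68, 5.97 and 3.64 CPM in the treated mice (-2.94 ± 0.54, adjusted p = 0.000934). NT mice spanned 14.9 to 21.0 CPM for *Kcnn3* and 2.38 to 6.31 CPM for *Kcnab1*, so that on both genes the treated mice lay within or near the NT range. *Kcns1*, a modifier subunit of potassium channels, had 0 counts in all 3 treated mice and 7.61, 7.87, 6.90, 5.04 and 2.10 CPM in the WT mice. Set against 3 counts over the treated group, *Kcns1* was at least 125-fold lower than in WT, and its NT range was 0 to 0.213 CPM. *Cacnb4*, a calcium channel beta subunit, rose from 0.107 to 0.263 CPM in WT to 1.29 to 4.73 CPM (3.76 ± 0.63, adjusted p = 0.000364).

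Proteins of the Z-disc and of stretch and stress responses formed the list with the most members called: 16 of 25 were higher and 0 lower, with a median log2 fold change of 1.34. The list was chosen with earlier results of these data known. It includes genes that the study itself listed as differing between NT and WT, such as *Hspb1* and *Lmod2*, so its rank is no independent result. In NT minus WT, 13 were higher (median 0.85), and in 42.4 mg/kg minus NT 4 were (median 0.45). *Mustn1*, a small nuclear protein of muscle regeneration, was at 43.5, 32.5, 41.7, 53.0 and 46.1 CPM in WT and 577, 366 and 446 CPM in the treated mice (3.42 ± 0.29, adjusted p = 1.61e-07). *Hspb7*, a small heat shock protein of striated muscle, was at 133, 112, 136, 212 and 438 CPM and 1925, 2330.2 and 2001 CPM (3.34 ± 0.36, adjusted p = 2.31e-06). For both genes the groups did not overlap. NT levels were 175 to 449 CPM for *Mustn1* and 840.1 to 1615 CPM for *Hspb7*. *Flnc* encodes filamin C, an actin crosslinker of the Z-disc, and was at 539, 641, 708, 716 and 808 CPM in WT and 3332, 3209.8 and 3069 CPM in the treated mice. It exceeded WT by 2.23 ± 0.25 (adjusted p = 4.15e-06) and NT, which spanned 1127 to 2027 CPM, by 0.99 ± 0.24 (adjusted p = 0.0247). *Lmod2*, a leiomodin that lengthens thin filaments, exceeded WT by 3.41 ± 0.37 (adjusted p = 2.94e-06) and NT by 1.43 ± 0.34 (adjusted p = 0.0245), at 595, 666 and 653 CPM in the treated mice. *Ankrd2*, a stretch-induced protein of slow fibres, was at 24.1, 6.37, 25.04, 27.0 and 90.9 CPM in WT and 284, 225 and 305 CPM in the treated mice (2.97 ± 0.63, adjusted p = 0.00403), and WT unnumbered was the highest WT mouse.

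The heat shock list, which shares *Hspb1*, *Cryab* and *Bag3* with the Z-disc list, had 8 of 25 members higher and 0 lower (median 0.32), and 5 higher without treated mouse A. *Hspb1*, the small heat shock protein HSP27, was at 200.1, 96.1, 133, 142 and 254 CPM in WT and 1434, 1006 and 940.5 CPM in the treated mice (2.77 ± 0.34, adjusted p = 1.37e-05). For *Hspb1*, 42.4 mg/kg minus NT was 1.34 ± 0.32 (adjusted p = 0.025).

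Of the fibre type genes tested, 13.3% of the fast and 12.5% of the slow list were called, all of them higher. Over all genes tested, 6.63% were higher. Among fast-fibre genes, 2 of 15 were higher and 0 lower, namely *Myom2*, an M-band protein, and *Myh1*, the IIX myosin heavy chain. *Myh1* was at 4467, 3192, 2823, 4562 and 7388 CPM in WT and 16203, 10343 and 11786 CPM in the treated mice (1.51 ± 0.35, adjusted p = 0.00685). *Myh1* in the NT mice was at 5093 to 17999 CPM (median 9804). *Myom2* differed by 0.80 ± 0.18 (adjusted p = 0.00517, 0.0855 without treated mouse B). Among slow-fibre genes, 2 of 16 were higher, *Ankrd2* and *Mb*, the gene of myoglobin (1.38 ± 0.31, adjusted p = 0.00562). The median of the slow list was 2.13 against WT and 1.75 against NT, although 14 of its members did not pass the test, and its sum ran over 907 to 2833 CPM in the WT mice, 2357 to 5595 CPM in the NT mice and 3859 to 6627 CPM in the treated mice. The slow list had 4 members higher without WT unnumbered and 4 by DESeq2, and 1 with library naming as a covariate. *Myh1* and *Mb* lost their call with the library naming as a covariate (adjusted p = 0.157 and 0.102).

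Among genes of muscle development, *Myf6* encodes MRF4, the myogenic factor of adult fibres, and was at 80.2, 66.0, 66.9, 70.4 and 81.1 CPM in WT and 319, 285 and 319 CPM in the treated mice. It was the gene of its list with the smallest p, with a log2 fold change of 2.08 ± 0.16 (adjusted p = 5.62e-08) against WT and 1.50 ± 0.15 (adjusted p = 8.98e-06) against NT. *Actc1*, the cardiac actin of fetal muscle, was far lower, at 3220.4, 403, 699.6, 340.3 and 199.6 CPM in WT and 20.4, 26.8 and 31.0 CPM in the treated mice (-5.22 ± 0.92, adjusted p = 0.000914). The male mouse WT 1 was the highest of the WT mice for *Actc1*, and the groups did not overlap with or without it. For this gene the NT mice spanned 19.3 to 79.9 CPM (median 37.6). Of the 20 genes of this list tested, 3 were higher and 2 lower. Without WT 1 these counts were 7 and 1, without WT unnumbered 6 were higher, and without any 1 treated mouse 1 was lower. The others called were the imprinted lncRNA *Rian* (2.63 ± 0.49, adjusted p = 0.00116), *Myh8*, the perinatal myosin (1.63 ± 0.38, adjusted p = 0.0066), and *Dlk1*, an imprinted inhibitor of adipogenesis, which was lower.

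**Figure D2:**
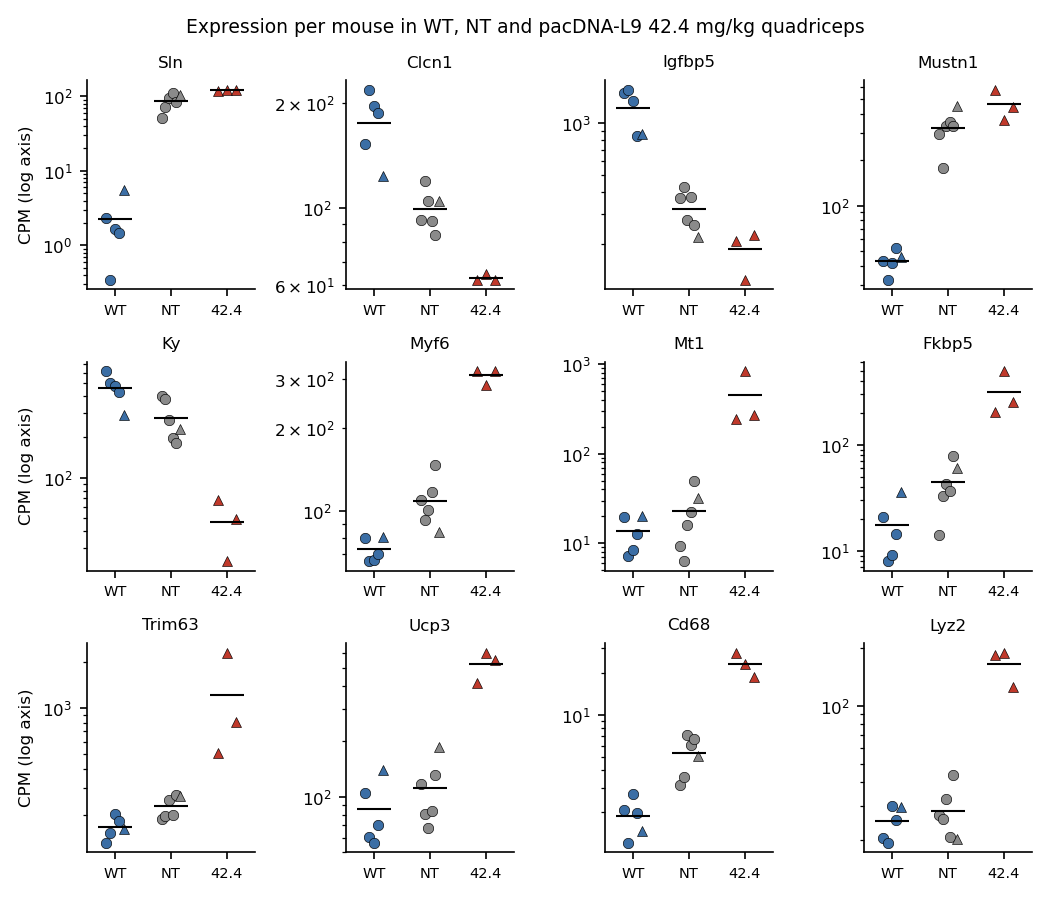
CPM on a log axis of 12 genes in each WT, NT and 42.4 mg/kg mouse; horizontal lines are group means and triangles mark libraries named by group and running number alone. For Sln, Clcn1, Igfbp5 and Mustn1 the NT mice lie away from WT, while for Mt1, Fkbp5, Trim63, Ucp3 and Lyz2 the NT and WT ranges overlap and the treated mice lie above both.

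Genes of the neuromuscular junction and of the response to denervation had 7 of 22 members higher and 1 lower (median 0.61), and 4 higher without treated mouse B. *Runx1*, a transcription factor induced by denervation, was at 4.23, 2.70, 2.57, 2.65 and 3.83 CPM in WT and 20.2, 22.8 and 18.3 CPM in the treated mice (2.67 ± 0.28, adjusted p = 1.72e-06). Against NT, its log2 fold change was 1.10 ± 0.26 (adjusted p = 0.021). *Gadd45a*, a growth arrest gene raised in atrophying muscle, was at 23.8, 21.0, 25.1, 23.3 and 24.4 CPM in WT and 107, 114 and 109 CPM in the treated mice (2.23 ± 0.31, adjusted p = 6.04e-05). *Gadd45a* in the NT mice was at 16.6 to 44.6 CPM (median 24.5). *Ncam1*, the neural cell adhesion molecule, and *Musk*, the kinase that clusters acetylcholine receptors, differed by 1.74 ± 0.29 (adjusted p = 0.000331) and 2.47 ± 0.47 (adjusted p = 0.00137). *Agrn*, the gene of agrin, was the lower member. The markers of Schwann cells and nerve moved in the other direction where they were called, *Ngfr* and *S100b* among them (3 lower of 12 tested, 0 higher, median -0.85). The adjusted p of *Ngfr* and *S100b* were 0.0382 and 0.0447, and both calls were lost on leaving out WT 1 (0.0605 and 0.0583), treated mouse B (0.187 and 0.159) or other mice.

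The growth axis of IGF1 and myostatin held 5 lower and 0 higher of 20 genes. *Igfbp5* (chr1:72897091-72914043) encodes an IGF-binding protein abundant in muscle and was at 1489, 1557, 1334, 841 and 859 CPM in WT and 207, 124 and 227 CPM in the treated mice. All treated mice were below all WT mice, the NT mice spanned 218 to 428 CPM (median 323), and the log2 fold change was -2.71 ± 0.30 (adjusted p = 3.54e-06). *Grb10*, an imprinted adaptor that restrains insulin signalling, was at 26.5, 35.2 and 32.5 CPM in the treated mice, 16.2 to 26.1 CPM in the NT mice and 65.6 to 93.7 CPM in the WT mice (-1.29 ± 0.20, adjusted p = 0.000223). *Irs1*, the insulin receptor substrate, fell from 59.2, 95.5, 80.7, 65.8 and 52.5 CPM in WT to 15.4, 15.5 and 14.4 CPM (-2.23 ± 0.39, adjusted p = 0.000599). *Acvr2a*, an activin and myostatin receptor (-1.43 ± 0.31, adjusted p = 0.00337), and *Igf1* itself completed the 5.

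Glucocorticoid-responsive genes had the highest median of the lists with 5 or more tested members, 2.41 against WT: 13 of 19 were higher and 1, *Rhobtb1*, was lower. This list, too, was chosen with earlier results of these data known. NT minus WT had 0 members called in either direction (median 0.39, 6 at an unadjusted p under 0.05), and 42.4 mg/kg minus NT had 9 higher (median 1.59). With library naming as a covariate the count against WT was 8 higher and 0 lower (9 higher when free L9 B was also left out). The call of *Rhobtb1* was lost without WT 2, WT 3, WT 4 or any treated mouse. The genes are known to answer glucocorticoids but also other signals, as metallothioneins answer metals. The sequences before the starts of *Mt1*, *Mt2* and the atrophy gene *Trim63* are printed because these genes stand among the clearest differences and belong to such pathways; they are the 250 bases upstream of the RefSeq start, from RefSeq on GRCm38.p6, plus strand. *Mt1* is at chr8:94178839-94179088, *Mt2* at chr8:94172368-94172617 and *Trim63* at chr4:134314870-134315119. Capitals mark, in both metallothionein genes, the metal response core TGCACNC or TGCGCNC on either strand, and in *Trim63* the glucocorticoid receptor palindrome GAACA and TGTTC with 3 bases between them, followed after 1 base by the forkhead core TGTTTAC:
Mt1: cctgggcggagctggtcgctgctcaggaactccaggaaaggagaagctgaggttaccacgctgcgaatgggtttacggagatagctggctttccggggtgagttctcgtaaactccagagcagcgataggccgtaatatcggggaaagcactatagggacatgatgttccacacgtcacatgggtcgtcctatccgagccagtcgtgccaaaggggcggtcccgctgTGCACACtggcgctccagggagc
Mt2: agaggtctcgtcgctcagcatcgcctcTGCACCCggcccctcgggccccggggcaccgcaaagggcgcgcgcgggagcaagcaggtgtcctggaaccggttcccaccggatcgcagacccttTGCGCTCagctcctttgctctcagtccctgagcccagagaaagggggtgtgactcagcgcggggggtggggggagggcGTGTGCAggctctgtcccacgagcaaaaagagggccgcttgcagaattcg
Trim63: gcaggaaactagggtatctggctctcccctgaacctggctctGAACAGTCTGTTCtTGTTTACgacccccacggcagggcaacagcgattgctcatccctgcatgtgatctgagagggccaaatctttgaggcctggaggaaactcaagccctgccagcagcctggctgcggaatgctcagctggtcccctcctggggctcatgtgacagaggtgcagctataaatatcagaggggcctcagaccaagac
Of 32851 such windows, 21.4% held 1 or more metal response cores (the *Mt1* window has 1) and 1.26% held 3 or more (the *Mt2* window has 3). The windows end at the RefSeq start used, and bases after it were not searched. The palindrome was in 13 windows (0.0396%) and the forkhead core, on either strand, in 3.17%. Neither of them was found in the windows of *Mt1* and *Mt2*, and no metal response core was found in that of *Trim63*. These are matches of letters and not measured binding.

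*Mt1* (chr8:94905710-94906955 on GRCm39) encodes a metal-binding protein that heavy metals, glucocorticoids and acute inflammation induce. It was at 19.5, 7.29, 8.36, 12.7 and 20.3 CPM in WT and 246, 839 and 274 CPM in the treated mice. Every treated mouse was above every other mouse of the set, and mouse B was the highest. The log2 fold change was 5.05 ± 0.70 (adjusted p = 9.12e-05) against WT and 4.32 ± 0.63 (adjusted p = 0.000747) against NT. The NT mice spanned 6.27 to 49.7 CPM (median 19.2), and the 10 other HSA-LR mice of the set, given lower doses, free L9 or control compounds, 8.67 to 47.8 CPM. *Mt2*, its neighbour and paralog, was at 0.643, 0, 0.202, 0.102 and 0.315 CPM in WT and 10.6, 33.8 and 9.00 CPM in the treated mice (6.10 ± 0.77, adjusted p = 1.82e-05), against 0.0553 to 1.86 CPM in NT and 0.202 to 1.02 CPM in the 10 others. An exon of a gene on the opposite strand covers 82% of the exonic bases of *Mt2*, so its reads could not be assigned without strand.

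*Fkbp5*, a co-chaperone of the glucocorticoid receptor that was singled out after its values were seen, was at 21.0, 7.98, 9.17, 14.4 and 35.6 CPM in WT and 203, 495 and 253 CPM in the treated mice. In NT it was at 14.3 to 78.3 CPM (median 39.8) and in the 10 others 5.49 to 77.2 CPM. Its log2 fold change was 4.17 ± 0.68 (adjusted p = 0.000495) against WT and 2.84 ± 0.62 (adjusted p = 0.0154) against NT. *Tsc22d3*, the glucocorticoid-induced leucine zipper GILZ, was at 309, 146, 198, 194 and 166 CPM and 609.9, 787 and 611 CPM (1.72 ± 0.27, adjusted p = 0.000185). *Arrdc3*, an arrestin-domain protein, differed by 2.57 ± 0.35 (adjusted p = 4.03e-05). For each of these genes treated mouse B was the highest. The circadian clock list, which can also follow the time of tissue collection, had 0 higher and 2 lower of 18 genes: *Bhlhe40*, a clock repressor (-0.91 ± 0.23, adjusted p = 0.0115, 0.0803 without treated mouse C), and *Hlf*, a clock output factor, at 21.2, 21.6, 21.8, 19.0 and 2.84 CPM in WT and 6.52, 2.89 and 7.36 CPM in the treated mice. WT unnumbered was below all 3 treated mice for *Hlf*, and the call (adjusted p = 0.0458) was lost on leaving out any WT mouse other than that one or any treated mouse. The list had 5 members lower without WT unnumbered, 1 without any of WT 1 to 4 or treated A or B, and 0 without C or with library naming as a covariate.

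Targets of FoxO and genes of muscle atrophy had 9 of 23 members higher and 0 lower (median 0.70), 1 higher in NT minus WT and 11 in 42.4 mg/kg minus NT. *Trim63* (chr4:134042393-134056948 on GRCm39), the ubiquitin ligase MuRF1, was at 131, 152, 201, 182 and 161 CPM in WT and 509, 2293 and 803 CPM in the treated mice. NT mice spanned 189 to 269 CPM (median 224) and the 10 other HSA-LR mice 139.5 to 247 CPM, all below the lowest treated mouse. The log2 fold change was 2.86 ± 0.31 (adjusted p = 2.48e-06) against WT and 2.40 ± 0.29 (adjusted p = 7.27e-05) against NT. *Gabarapl1*, an autophagosome protein, was at 24.3, 33.2, 43.0, 39.4 and 40.2 CPM and 104, 159 and 114 CPM (1.80 ± 0.19, adjusted p = 1.53e-06). *Foxo1* itself (2.29 ± 0.31, adjusted p = 4e-05) and *Cdkn1a*, the cell cycle inhibitor p21 (3.30 ± 0.47, adjusted p = 9.26e-05), were at 59.1, 169.6 and 82.3 CPM and 91.6, 457 and 132 CPM in the treated mice, against 17.3 to 23.6 and 11.1 to 47.8 CPM in WT. *Fbxo32* (atrogin-1), *Foxo3*, *Klf15*, *Sesn1* and the proteasome subunit *Psmd11* made up the rest of the 9. Treated mouse B was again the highest for the 4 genes given here, and the count of the list stayed between 7 and 11 when any 1 of the 8 mice was left out, and was 14 without free L9 B.

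Of 42 proteasome subunits, 9 were higher and 0 lower (median 0.25), with *Psmd11* first (0.72 ± 0.12, adjusted p = 0.000493). That count fell to 3 without treated mouse A or B and to 2 with library naming as a covariate (5 without free L9 B). Cytosolic ribosomal proteins had 9 of 83 higher (median 0.27), and this count moved both ways. It was 1 without treated mouse A, 3 without B, 4 without C, WT 1 or WT 2, and 0 with the covariate, but 22 without free L9 B, 21 in a fit of only the groups compared and 14 by DESeq2.

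The genes of fatty acid uptake and oxidation and PPAR targets had 6 of 30 members higher and 0 lower (median 0.26), 0 in NT minus WT (0 at an unadjusted p under 0.05) and 6 in 42.4 mg/kg minus NT, and 3 against WT with library naming as a covariate. *Ucp3*, the mitochondrial uncoupling protein of muscle, was at 104, 60.8, 56.2, 69.9 and 140 CPM in WT and 415, 607 and 554 CPM in the treated mice. *Ucp3* spanned 36.4 to 134 CPM in the 10 other HSA-LR mice, and its log2 fold change was 2.61 ± 0.34 (adjusted p = 3.14e-05) against WT and 2.23 ± 0.32 (adjusted p = 0.000442) against NT. *Acot2*, a mitochondrial acyl-CoA thioesterase, was at 8.47, 7.87, 7.61, 9.16 and 16.4 CPM and 25.2, 87.1 and 54.5 CPM (2.49 ± 0.41, adjusted p = 0.000325). *Ppargc1a*, the coactivator PGC-1alpha, differed by 1.60 ± 0.30 (adjusted p = 0.000967), and *Pnpla2*, the lipase ATGL, by 1.17 ± 0.30 (adjusted p = 0.0116, 0.113 without treated mouse B). *Pdk4*, a kinase that switches muscle from glucose to fat, was singled out after its values were seen and was at 2932, 4556 and 4168 CPM in the treated mice. WT levels of *Pdk4* were 347, 101, 66.4, 126 and 1099 CPM, with WT unnumbered several-fold above the rest, and NT 6 was the highest NT mouse at 943 CPM (3.48 ± 0.87, adjusted p = 0.014, 0.0544 with library naming as a covariate).

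Nuclear-encoded oxidative phosphorylation gave 0 calls in 80 genes (1 at an unadjusted p under 0.05, and 0 by DESeq2), and the 13 mitochondrially encoded genes gave 0 (0 at an unadjusted p under 0.05, and 0 by DESeq2). Glycolysis and glycogen genes had 5 of 31 higher, led by *Fbp2*, the muscle fructose bisphosphatase (1.85 ± 0.30, adjusted p = 0.000334), and 2 without treated mouse B. *Plin4*, a lipid droplet coat protein, was the 1 adipocyte marker called (1.78 ± 0.30, adjusted p = 0.00041) while the median of the 15 adipocyte markers was -1.79 and their sum ran over 589 to 1570.2 CPM in the WT mice, 322 to 2763 CPM in the NT mice and 869 to 1344 CPM in the treated mice.

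**Figure D3:**
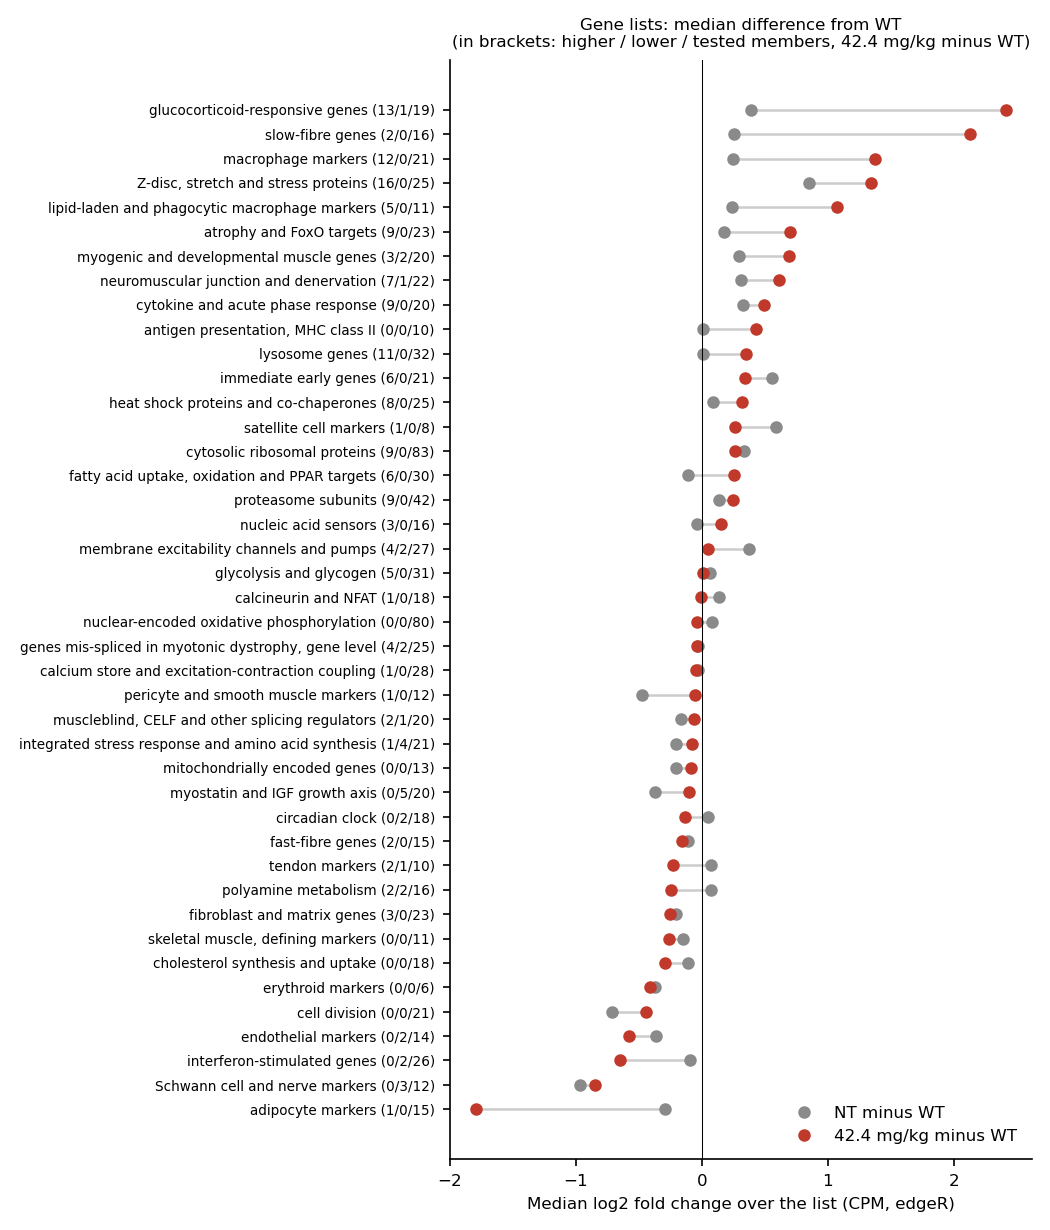
Median log2 fold change of each gene list with 5 or more tested members for NT minus WT (grey) and 42.4 mg/kg minus WT (red), with the counts of higher, lower and tested members at 42.4 mg/kg in brackets. Glucocorticoid-responsive genes have the highest median (2.41) and adipocyte markers the lowest (-1.79), and both comparisons share the WT mice.

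Macrophage markers were higher in the treated mice: 12 of 21 tested members were higher and 0 lower against WT (median 1.38), 1 in NT minus WT and 9 in 42.4 mg/kg minus NT. Their summed level ran over 74.2 to 121 CPM in the WT mice, 88.9 to 167 CPM in the NT mice and 299.8 to 436 CPM in the treated mice, and the treated mice did not overlap with either other group. In bulk tissue, more cells of a type and more RNA per cell cannot be told apart. *Cd68*, a lysosomal glycoprotein of macrophages, was at 2.09, 1.21, 2.72, 1.98 and 1.47 CPM in WT and 28, 23.1 and 18.8 CPM in the treated mice (3.61 ± 0.31, adjusted p = 1.86e-07; against NT 2.14 ± 0.28, adjusted p = 0.000137). *Lyz2*, the lysozyme of myeloid cells, was at 20.4, 19.3, 29.9, 25.5 and 29.8 CPM and 183, 189 and 125 CPM (2.73 ± 0.28, adjusted p = 1.37e-06). *Lyz2* in the NT mice was at 20.2 to 43.8 CPM (median 26.4). The 2 Brush mice, which received 40 nmol of the polymer without an oligonucleotide, were at 83.4 and 88.1 CPM for *Lyz2* and at 11.5 and 17.1 CPM for *Cd68*. The 2 pacDNA-Scr mice, given 5.3 mg/kg of the conjugate with a scrambled sequence, were at 40.4 and 71.4 CPM for *Lyz2* and at 6.27 and 11.8 CPM for *Cd68*, the first of them within the NT range for both genes. The 2 mice given 5.3 mg/kg of free L9 were at 28.8 and 36.5 CPM for *Lyz2* and 6.90 and 6.46 CPM for *Cd68*. With pacDNA-L9, *Lyz2* was at 76.1 and 44.7 CPM at 5.3 mg/kg and at 46.8 and 108 CPM at 21.2 mg/kg. *Cd68* was at 10.1 and 16.6 CPM at 5.3 mg/kg and at 10.9 and 21.3 CPM at 21.2 mg/kg, the last above treated mouse C. The summed macrophage markers of these mice were 233 and 170 CPM at 5.3 mg/kg and 150 and 289 CPM at 21.2 mg/kg. These doses differ from 42.4 mg/kg, so the values are set side by side only. *Csf1r*, the receptor that sustains macrophages, differed by 1.41 ± 0.20 (adjusted p = 6.61e-05) and the complement gene *C1qb* by 2.13 ± 0.33 (adjusted p = 0.000192).

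Markers of lipid-laden and phagocytic macrophages had 5 of 11 tested members higher and 0 lower. *Lgals3*, galectin 3, was at 2.41, 1.89, 2.97, 3.56 and 5.04 CPM in WT and 26.9, 25.9 and 18.2 CPM in the treated mice (2.89 ± 0.37, adjusted p = 2.27e-05). *Gpnmb*, a glycoprotein of lysosome-rich macrophages, was at 1.02, 3.62, 3.98, 1.68 and 4.99 CPM and 20.7, 21.0 and 15.8 CPM (2.65 ± 0.37, adjusted p = 6.06e-05), and *Trem2*, a lipid-sensing receptor, differed by 3.68 ± 0.60 (adjusted p = 0.000314). Among lysosome genes, 11 of 32 were higher and 0 lower, led by the protease cathepsin S: *Ctss* was at 2.14, 2.07, 3.58, 2.34 and 3.73 CPM in WT and 30.3, 30.9 and 17.2 CPM in the treated mice (3.23 ± 0.37, adjusted p = 4.87e-06). The lysosomal lipase *Lipa* showed a smaller and tighter difference, 8.73, 7.98, 8.92, 7.53 and 8.61 CPM against 15.9, 14.4 and 15.7 CPM (0.87 ± 0.15, adjusted p = 0.000401). The lysosome count fell to 7 without WT 2, WT 3 or treated mouse B, and to 5 without treated mouse A or with library naming as a covariate (7 when free L9 B was also left out).

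**Figure D4:**
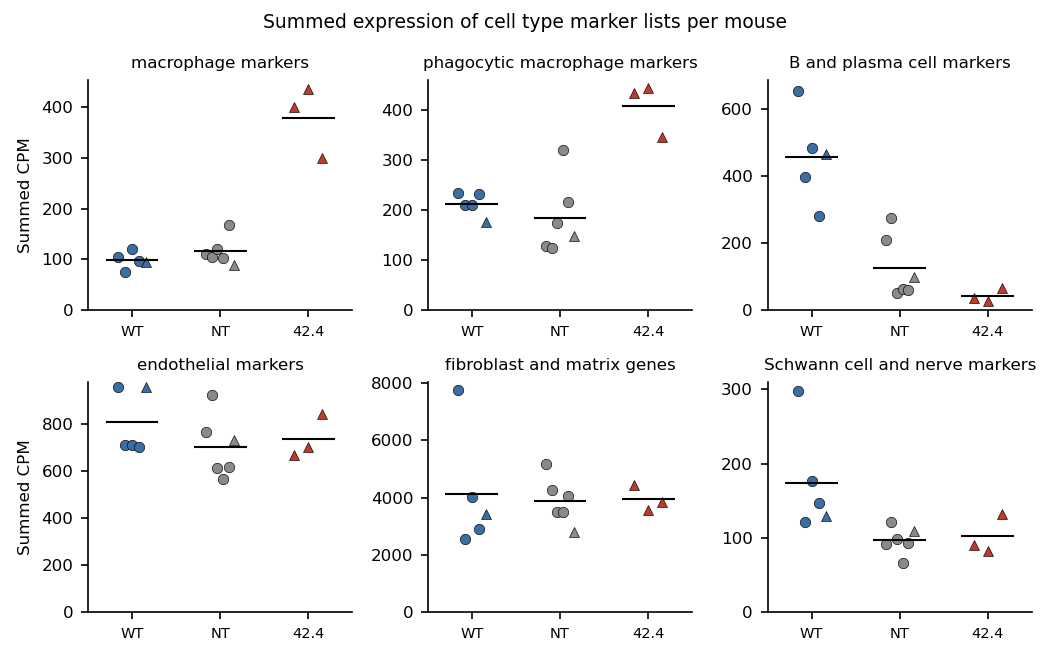
Summed CPM of 6 cell type marker lists in each WT, NT and 42.4 mg/kg mouse; horizontal lines are group means and triangles mark libraries named by group and running number alone. Macrophage sums are 299.8 to 436 CPM in the treated mice, above all WT and NT mice, while the endothelial and fibroblast sums overlap between groups.

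Each of the other cell type lists had fewer members called than the macrophage list. Over all genes tested, 6.63% were higher and 4.18% lower. *Ighm*, the heavy chain of IgM and the 1 B-lineage marker called of 2 tested, was at 655, 398, 485, 281 and 465 CPM in WT and 36.2, 28.1 and 64.5 CPM in the treated mice (-3.41 ± 0.73, adjusted p = 0.00439). *Ighm* in the NT mice was at 50.5 to 274 CPM (median 81.3). Endothelial markers had 2 of 14 lower and 0 higher: *Kdr*, the VEGF receptor, at 59.0, 68.5, 54.1, 61.6 and 132 CPM in WT and 35.3, 20.4 and 38.0 CPM in the treated mice (-1.26 ± 0.28, adjusted p = 0.00507, 0.0551 without treated mouse B), and *Erg* (-0.89 ± 0.28, adjusted p = 0.0411, 0.229 without B, 0.0995 without WT 1). Their sum ran over 701 to 956 CPM in the WT mice, 566 to 922 CPM in the NT mice and 668 to 840.4 CPM in the treated mice, so the list as a whole overlapped between groups. The lower count was 1 without WT 1, WT unnumbered or treated mouse A, 0 without B and 5 without free L9 B. *Apln*, a peptide of endothelial tip cells that was among the 10 lower genes with the largest change, fell from 19.3, 3.73, 4.38, 3.61 and 10.8 CPM in WT to 0.911, 0.354 and 0.274 CPM (-4.01 ± 0.76, adjusted p = 0.00123).

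Fibroblast and matrix genes had 3 of 23 higher: *Cilp*, a cartilage matrix protein (2.36 ± 0.42, adjusted p = 0.000806; NT mice 161 to 511 CPM, treated mice 145 to 217 CPM), *Gsn*, gelsolin (0.93 ± 0.22, adjusted p = 0.00679), and *Pdgfra* (0.93 ± 0.25, adjusted p = 0.0164, 0.0587 without treated mouse B). Tendon markers had 2 higher, *Prg4*, lubricin (2.36 ± 0.40, adjusted p = 0.000433), and *Thbs4*, and 1 lower, the matrix proteoglycan gene *Kera* (-2.17 ± 0.60, adjusted p = 0.0221, 0.128 without B, and lost without C). The higher count was 1 on leaving out any WT mouse but WT 3, or treated mouse A or B. Of T and NK cell markers, *Cd4* was the 1 member with enough counts to test, at 0.0536, 0.0574, 0.0504, 0 and 0.0525 CPM in WT and 1.29, 1.60 and 1.53 CPM in the treated mice (4.92 ± 0.77, adjusted p = 0.000234). Neutrophil markers had 3 members tested, with *S100a8* higher and *Mmp9* lower, both at or below 2 CPM on average. The call of *S100a8* was lost without treated mouse B or C, and that of *Mmp9* without any 1 treated mouse. MHC class II (10 tested), erythroid (6) and cell division genes (21) gave 0 calls, with 1, 0 and 2 at an unadjusted p under 0.05, and DESeq2 called 0, 0 and 1. *Chodl* among 8 satellite cell markers and *Cspg4* among 12 pericyte markers were higher. The satellite cell call was lost without WT 2, WT 4, treated mouse A or B or with library naming as a covariate, and without WT 1 there were 3. The pericyte call was lost without treated mouse B or with the covariate.

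Cytokine and acute phase genes had 9 of 20 tested members higher and 0 lower (median 0.49). *Serpina3n*, a protease inhibitor of the acute phase, was at 7.93, 10.0, 9.42, 8.60 and 6.25 CPM in WT and 40.6, 84.4 and 42.4 CPM in the treated mice (2.72 ± 0.27, adjusted p = 1.16e-06; against NT 1.69 ± 0.26, adjusted p = 0.000631). *Il6ra*, the interleukin 6 receptor, was at 3.32, 3.44, 3.68, 4.38 and 3.31 CPM and 22.9, 106 and 34.4 CPM (3.90 ± 0.48, adjusted p = 1.29e-05). *Cebpd*, an acute phase transcription factor, differed by 2.48 ± 0.42 (adjusted p = 0.000442). *Lcn2*, lipocalin 2, was at 0.375, 0.172, 0.202, 0.254 and 0.158 CPM in WT and 4.46, 79.8 and 6.61 CPM in the treated mice (6.98 ± 1.71, adjusted p = 0.0126), but NT 6 stood at 32.3 CPM among NT mice otherwise at 0.172 to 1.64 CPM, and the call was lost without treated mouse B (adjusted p = 0.119).

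Of the immediate early genes, 6 of 21 were higher and 0 lower, and 3 higher without treated mouse B. *Atf3*, a stress-induced transcription factor, was at 7.88, 2.30, 3.63, 3.66 and 16.8 CPM in WT and 246, 125 and 173 CPM in the treated mice (4.72 ± 0.54, adjusted p = 7.99e-06). *Atf3* in the NT mice was at 27.2 to 78.2 CPM (median 48.1). *Jun* differed by 1.75 ± 0.23 (adjusted p = 2.1e-05) and the matrix signalling gene *Ccn1* by 2.14 ± 0.35 (adjusted p = 0.000299). *Maff*, a small MAF factor, was at 4.12, 78.4 and 8.06 CPM in the treated mice and rested on mouse B (3.61 ± 0.68, adjusted p = 0.00132, 0.143 without it). The integrated stress response list had 4 lower and 1 higher of 21: *Aldh1l2*, of mitochondrial one-carbon metabolism (-1.85 ± 0.39, adjusted p = 0.00298), *Aldh18a1*, *Pycr1* and *Psph* were lower, and *Slc7a5*, an amino acid transporter at 6.86, 35.5 and 6.97 CPM in the treated mice, was higher (1.90 ± 0.57, adjusted p = 0.0363, 0.604 without B). The 4 lower calls became 1 without WT 1 or any treated mouse, 2 without WT 3, and 0 with library naming as a covariate (2 when free L9 B was also left out). Polyamine genes had 2 higher (*Sat1*, *Odc1*) and 2 lower (*Enoph1*, *Mtap*) of 16. With 6.63% higher and 4.18% lower over all genes tested, these few calls are not read as a change of the pathway. The lower count was 0 without treated mouse B, and 1 without WT 2, A or C or with the covariate.

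Among interferon-stimulated genes, 0 of 26 were higher (0 by DESeq2 as well) and 2 lower (median -0.65), namely *Irf9*, part of the interferon response complex (-1.13 ± 0.24, adjusted p = 0.00367), and *Isg15* (-2.05 ± 0.64, adjusted p = 0.0429, 0.173 without treated mouse B, and lost without most other mice in turn). Without free L9 B, 4 were lower. Their summed level ran over 82.0 to 129 CPM in the WT mice, 69.6 to 193 CPM in the NT mice and 47.1 to 79.7 CPM in the treated mice. Of 16 nucleic acid sensors tested, 3 were higher and 0 lower. *Tlr7*, an endosomal receptor for single-stranded RNA, was at 0.214, 0.287, 0.504, 0.305 and 0.0525 CPM in WT and 3.45, 2.95 and 0.744 CPM in the treated mice (3.09 ± 0.57, adjusted p = 0.000937). *Tlr8* was at 0, 0.230, 0.202, 0.153 and 0 CPM in WT and 1.10, 1.24 and 0.196 CPM in the treated mice (2.78 ± 0.74, adjusted p = 0.0176). Treated mouse C lay within the WT range of *Tlr8*. Apart from treated mice A and B, the highest mouse of the set was at 0.357 CPM, so *Tlr8* entered the test through them alone. *Irf5*, an interferon regulatory factor, was at 21.5, 11.0 and 12.8 CPM against 17.7 to 30.4 CPM in NT and 3.27 to 5.85 CPM in WT (1.65 ± 0.23, adjusted p = 6.08e-05).

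Splicing regulators gave 2 higher and 1 lower of 20, none of them a muscleblind or CELF gene: *Hnrnpa1*, at 79.1, 46.0, 59.9, 64.6 and 55.7 CPM in WT and 94.4, 132 and 102 CPM in the treated mice (0.84 ± 0.15, adjusted p = 0.000504), *Rbm20*, a regulator of titin splicing (0.87 ± 0.21, adjusted p = 0.00836, 0.106 without treated mouse B), and *Srsf1* (-0.52 ± 0.16, adjusted p = 0.0372, 0.189 without B and above 0.05 without WT 1, WT 2, WT 4, WT unnumbered or A). These counts of splicing regulators lay near the shares over all genes tested, 6.63% higher and 4.18% lower. Among 25 genes known to be mis-spliced in myotonic dystrophy, 4 were higher and 2 lower in total expression. Besides *Clcn1* these included *Trim55*, the ubiquitin ligase MuRF2, which was lower (-0.91 ± 0.16, adjusted p = 0.000607), and *Pdlim3*, a Z-disc protein (0.96 ± 0.18, adjusted p = 0.00119), *Nrap* and *Camk2b*, which were higher. The calcineurin list had 1 member higher of 18, *Rcan2*, also near the share over all genes. That call was lost without WT 2, WT 3, WT 4 or treated mouse C, and without WT unnumbered there were 3. Cholesterol synthesis had 0 of 18 in either direction (5 at an unadjusted p under 0.05, and 1 by DESeq2).

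By size alone, several of the 10 higher and 10 lower genes with the largest changes belong to none of the lists. *Krt8* and *Krt18*, the paired keratins of simple epithelia, were at 14.8, 10.6 and 10.4 CPM and 12.8, 9.22 and 11.2 CPM in the treated mice and below 1 CPM in every WT mouse (7.66 ± 1.16, adjusted p = 0.000195, and 5.25 ± 0.97, adjusted p = 0.00118). The NT mice were at 0.996 to 16.8 and 1.33 to 9.86 CPM. *Myo1a*, an unconventional myosin, was at 2.09, 0.344, 0.353, 0.61 and 0.473 CPM in WT and 54.4, 38.2 and 29.9 CPM in the treated mice (5.71 ± 0.48, adjusted p = 1.86e-07), and *Ccdc192* at 0, 0.172, 0.302, 0.407 and 0.578 CPM and 10.7, 10.5 and 9.00 CPM (5.06 ± 0.45, adjusted p = 2.17e-07). For both, the NT mice lay at or around the treated level, at 22.6 to 59.9 and 7.91 to 21.1 CPM. *Cimap1d*, a ciliary microtubule protein gene, was instead highest in the treated mice, at 36.1, 239 and 62.2 CPM against 0.907 to 2.36 CPM in WT and 4.10 to 9.71 CPM in NT (6.03 ± 0.78 against WT, adjusted p = 4.75e-05, and 4.11 ± 0.66 against NT, adjusted p = 0.00153). The lncRNA genes *Platr7*, at 0.815, 14.5 and 1.53 CPM, and *Gm42809*, at 0.479, 19.9 and 0.47 CPM, were carried by mouse B. *Gm42809* had 0 counts in all WT mice, so that the treated mean was at least 219-fold above 3 counts over the WT group. It overlaps *Il6ra* (chr3:89771366-89820719 and chr3:89820223-89821360 on GRCm39), which was also highest in mouse B, and reads of the overlap could not be told apart.

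On the lower side, *Ky* (chr9:102382949-102423441) encodes kyphoscoliosis peptidase, a Z-disc protein needed to maintain muscle, and was at 617, 500.5, 479.6, 429 and 291 CPM in WT and 67.8, 23.9 and 49.0 CPM in the treated mice. The NT mice spanned 181 to 400.5 CPM (median 249), above all treated mice, and the log2 fold changes were -3.30 ± 0.39 against WT (adjusted p = 7.28e-06) and -2.56 ± 0.37 against NT (adjusted p = 0.000384). *Fam78a* showed the same order, with 69.9, 69.6, 65.5, 53.5 and 42.8 CPM in WT, 23.0 to 44.5 CPM in NT and 10.1, 3.84 and 7.63 CPM in the treated mice (-3.06 ± 0.31, adjusted p = 1.46e-06). *Irgm2*, an immunity-related GTPase, was at 30.01, 24.7, 15.7, 19.2 and 19.4 CPM in WT, 7.28 to 15.0 CPM in NT and 1.87, 1.54 and 3.76 CPM in the treated mice (-3.17 ± 0.37, adjusted p = 5.84e-06). *Sytl2*, a vesicle trafficking protein, was at 0.575, 1.71 and 1.21 CPM in the treated mice, near the 0.682 to 2.45 CPM in NT and below the 5.30 to 21.5 CPM in WT (-3.67 ± 0.63, adjusted p = 0.00048).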

How the data were processed

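Poly(A)-enriched RNA of mouse quadriceps was sequenced by the authors as paired-end reads, which they trimmed and mapped to GRCm39; the submitters' processing notes name HISAT2 2.0.5 and DESeq2. The deposited table holds raw whole-number counts per Ensembl gene, 56748 genes in 30 libraries, without normalization, and no column was left unused. The counting tool's options, its use of strand and the annotation release are not given in the sources used here, and 56017 genes were matched to GENCODE vM39.

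The fit was made in edgeR 4.0.16 (R 4.3.3) on the 24 libraries of the first set, with filterByExpr (15832 genes kept), TMM, and a robust quasi-likelihood fit with 8 condition coefficients and 16 residual degrees of freedom. P-values were adjusted by Benjamini-Hochberg over the genes tested, and 0.05 was the threshold. The standard error was the size of the log2 fold change divided by the square root of F. Levels are TMM-scaled CPM and were not divided by length. For a group at 0 counts, the bound used 3 counts over the group. The labels separate the animals but name no litters or batches. The p-values set a difference between groups against the spread between mice within conditions, which was estimated over all 24 libraries, free L9 B included. The fit was tested on simulated data.

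The members and the 45 gene lists were chosen with earlier results of these data known. Named genes are the 10 higher and 10 lower of greatest log2 fold change whose groups did not overlap, whose test passed and whose higher group averaged 5 CPM or more, up to 4 called members per list in order of p (in cell type lists, and lists with none called, also up to 3 by level), and the 3 higher and 3 lower of at least 5 CPM that also passed against NT. Other genes were singled out after their values were seen: *Fkbp5*, *Pdk4* and further members that complete a list's count. Some named genes are not reported here. Alternatives were another size factor, library size alone, other filters, other sets of libraries, sex, library naming or detected genes as covariates, DESeq2 1.42.0, and leaving out each mouse.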

Additional observations from a re-analysis of the deposited data

Results flagged for a closer look

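Single mice that stood far from the rest of their group were sought by Dixon's ratio among the WT mice (critical value 0.71) and among the NT mice (0.625), over 290 sets of values: the named genes, the summed lists, the totals and the mitochondrial shares. A total of 29 were found, while chance gives about 1 in 20.

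WT unnumbered stood apart for its mitochondrial share (13.3% against 6.99% to 8.77% in the other 4), for *Hlf* (2.84 CPM against 19.0 to 21.8), for the summed clock genes (604 CPM against 1054 to 1100), for *Pdk4* (1099 CPM against 66.4 to 347), *Ankrd2* (90.9 CPM against 6.37 to 27.0), *Acot2* (16.4 CPM against 7.61 to 9.16), *Kdr* (132 CPM against 54.1 to 68.5) and *Krt18* (0.840 CPM against 0 to 0.230). The male mouse WT 1 stood apart for *Actc1* (3220 CPM against 199.6 to 699.6), *Myo1a* (2.09 CPM against 0.345 to 0.611), *Rian* (42.0 CPM against 8.67 to 12.5), *Slc7a5* (7.50 CPM against 3.20 to 4.25), the summed myogenic and developmental genes (5324 CPM against 888 to 1378) and the summed fibroblast and matrix genes (7762 CPM against 2554 to 4016). WT 2 was low for *Ccn1* (18.1 CPM against 28.8 to 32.1) and for the summed proteasome subunits (3818 CPM against 4071 to 4130), and WT 4 had 0 CPM of *Cd4* against 0.0504 to 0.0574.

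Among the NT mice, NT 6 was high for *Lcn2* (32.3 CPM against 0.172 to 1.64), *Pdk4* (943 CPM against 90.5 to 330), *Lmod2* (378 CPM against 169 to 245), *Ankrd2* (146 CPM against 36.5 to 77.5), *Myo1a* (59.9 CPM against 22.6 to 34.1), *Ccdc192* (21.1 CPM against 7.91 to 12.6) and *Gm42809* (0.738 CPM against 0 to 0.172). NT 6 is the NT library named by running number alone, as the libraries of the treated mice are. NT 3 was high for *Fam78a* (44.5 CPM against 23.0 to 30.3) and *Gpnmb* (10.3 CPM against 3.30 to 5.93), NT 2 for *Kcnab1* (6.31 CPM against 2.38 to 3.20), and NT 4 for the summed interferon-stimulated genes (193 CPM against 69.6 to 110) and adipocyte markers (2763 CPM against 322 to 799.7).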

How the results depend on the processing

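The counts of 1049 higher and 662 lower genes, and of 665 higher and 376 lower beyond 1 on the log2 scale, stayed within 1.5 times under most alternatives. With library naming as a covariate they were 603, 295, 473 and 202, and when free L9 B was also left out 990, 636, 630 and 347. Within the libraries named by running number alone all 4 were 0, with 1 WT mouse and 3 residual degrees of freedom, which says nothing about stability. In that last comparison 97 of the 98 genes given with values kept their direction and *Hlf* turned, at a log2 fold change of 0.99. The genes were chosen by calls that used these same treated mice and WT unnumbered. Their direction was therefore largely set beforehand and does not show that the naming has no part in it. Without free L9 B, chosen after seeing the data, 1617 were higher and 1220 lower. A filter of at least 10 counts in every library, which leaves fewer genes to test, gave 427 higher beyond 1. Leaving out each mouse in turn gave 614 to 1037 higher, 275 to 676 lower, 470 to 677 higher beyond 1 and 186 to 396 lower beyond 1, the lowest always without treated mouse B. The count of lower genes was 425 without treated mouse A. The causes were not tested. Of the 98 genes, 73 kept their direction and their call under each of the other 23 alternatives that gave them a value, and the other 25 lost the call in at least 1. Of the 73, 58 had a value under each of the 23, and a filter of at least 10 counts gave a value for 76 of the 98. None turned, and the alternatives of scaling, DESeq2 size factors and library size alone, lost no call. No paired analysis was possible because the labels number the WT mice and letter the treated mice, and nothing in them pairs the animals. Depth limits genes near 1 CPM, where a WT group total of a few counts stands behind a fold change. With 3 treated mice, a p that misses the threshold does not show that levels were alike.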
